A study of Mus musculus with 4 samples.

Results

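The Rab GTPases were followed in plasmacytoid dendritic cells (pDCs) of the mouse spleen. Members were all genes whose symbol is Rab followed by 1 or 2 digits and at most a single letter, which leaves out binding partners with compound names such as Rab3il1. The rule gave 59 genes of 19938 with a probe set annotated to exactly 1 symbol, read by 62 of the array's 30177 probe sets. The samples were mature pDCs sorted from 2 WT and 2 Flt3 KO spleen preparations, taken from mice at steady state after digestion of the spleen with collagenase and DNase, and each was hybridised to its own whole-transcript GeneChip array. The labels call the samples of a genotype biological replicates. The sources used here do not give the Flt3 allele, the strain, the age of the mice or whether animals were pooled. The p-values therefore rest on the spread between these samples, which limma draws towards that of all genes at a similar level. Flt3 encodes the receptor for FLT3 ligand, a cytokine of dendritic cell development, and its log2 intensity was 10.71 and 10.77 in WT, with 8.46 and 8.61 in Flt3 KO, lower in both arrays labelled Flt3 KO.

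Rab proteins are small GTPases that mark the membranes of the secretory and endocytic pathways. In the GTP-bound form each recruits effectors such as tethers and motor adaptors. Guanine nucleotide exchange factors switch them on, and GTPase-activating proteins switch them off. In pDCs, as in other dendritic cells, endosomal transport brings nucleic acids and the Toll-like receptors that sense them into the same compartments, and the secretory route carries interferon out of the cell.

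All values are log2 of the intensity the authors deposited, and a difference is Flt3 KO minus WT with the standard error (SE) of limma's model over all 19938 genes. A gene passed when its p, adjusted by Benjamini-Hochberg over all genes, was under 0.05. The median deposited intensity was 55.1 to 57.2 over the 4 arrays, and 23 of the 59 members had a mean below 5.89, the median log2 level of all genes, so their signal over background was low. Of 14 measured pDC markers none lay below that level, and 8 of them fell in Flt3 KO while 0 rose. Of 22 monocyte and macrophage markers 6 rose in Flt3 KO and 0 fell. The list's median stood highest in Flt3 KO replicate 2, which not all 6 shared, and these values are given beside those of Rab genes.

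Of the 59 Rab genes, 2 rose in Flt3 KO pDCs, Rab31 and Rab27a, 1 fell, Rab7b, and 56 did not pass. That is 5.08% of the family, where 2.39% of all genes tested passed, 1.08% higher and 1.31% lower. At an unadjusted limma p under 0.05 there were 12 members, or 20.3%, of which 5 were higher and 7 were lower, against 17.1% of all genes. The genotypes' values were fully apart for 29 members, or 49.2%, against 47.2% of all genes (21.9% higher and 25.3% lower). The median difference of the family was −0.0093, with −0.0010 over all genes, and 48 of the 59, or 81.4%, differed by less than 0.2, against 80.5% of all genes. The family as a whole was close to the background, and the largest differences lay in single members. When any single array was left out, 0 Rab genes passed in limma, and 9 to 13 had an unadjusted p under 0.05. Without limma's intensity trend, which lets the variance follow the level, 0 passed and 11 had an unadjusted p under 0.05.

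**Figure D1:**
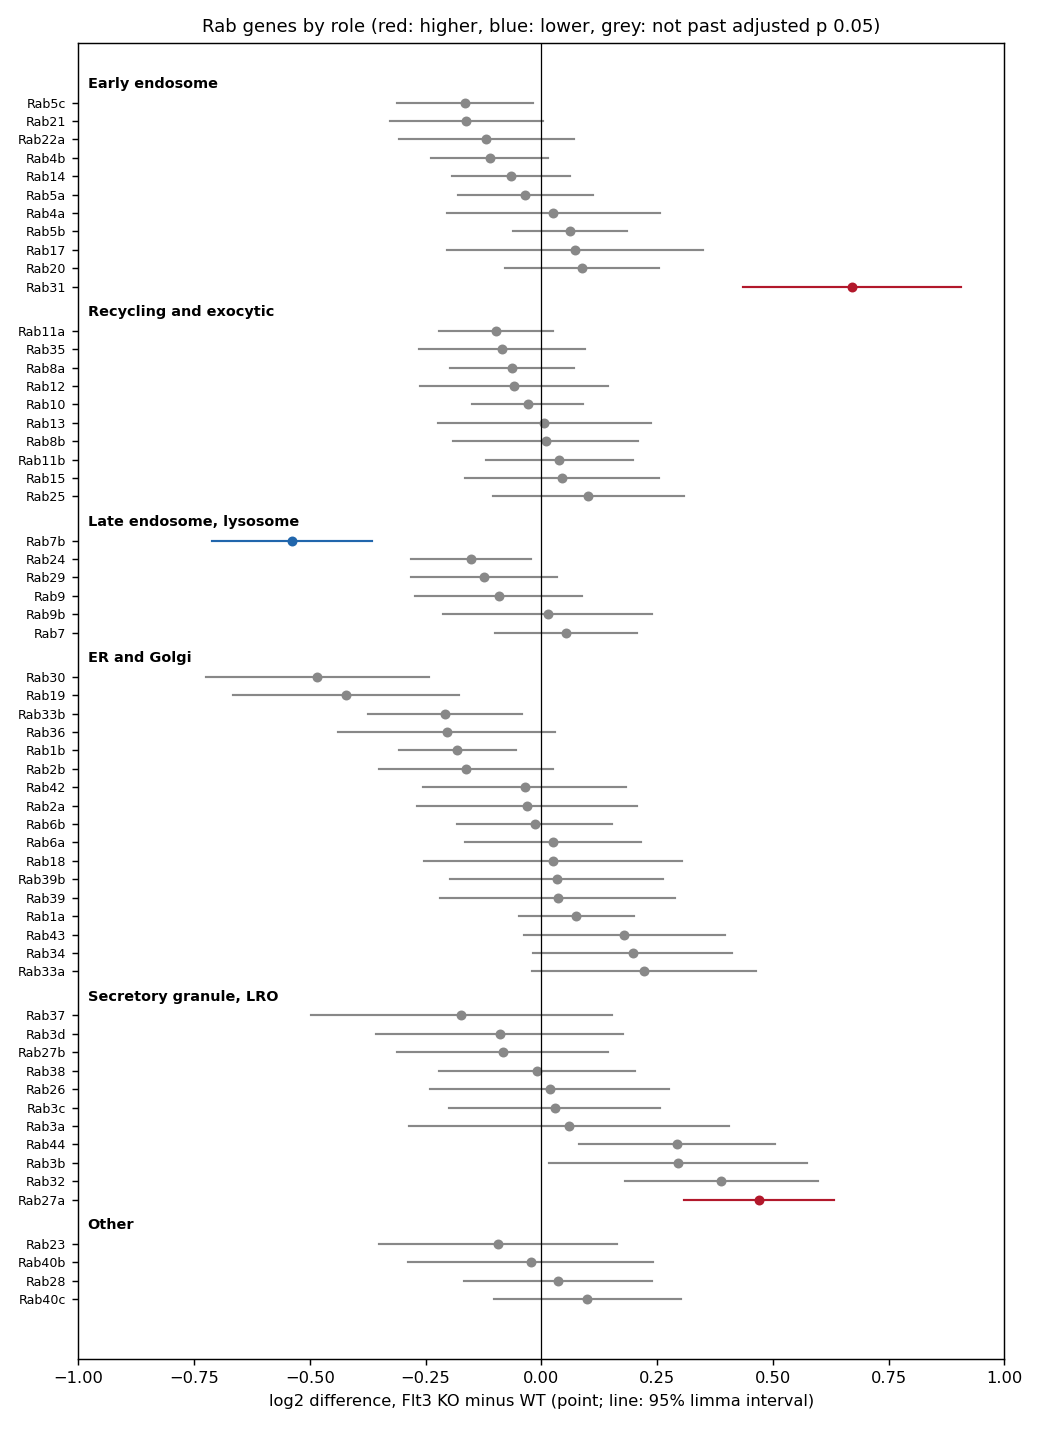
Log2 difference (Flt3 KO minus WT, x axis) of all 59 Rab genes, grouped by the membrane on which each is best known to act. Points are limma estimates and lines their 95% intervals, with red for higher, blue for lower and grey for not past the threshold. Of the 59 members 48 differ by less than 0.2. Rab31, Rab27a and Rab7b stand outside this band, as do uncalled members such as Rab30 (−0.48), Rab19 (−0.42) and Rab32 (0.39). LRO, lysosome-related organelle.

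The late endosomal and lysosomal group held the member that fell. Rab7b, a GTPase of late endosomes and the trans-Golgi network that is known to limit TLR4 and TLR9 signalling in macrophages, had log2 intensities of 9.52 and 9.64 in WT, with 8.97 and 9.12 in Flt3 KO. Both Flt3 KO arrays lay below both WT arrays. The level went from 9.58 ± 0.09 to 9.04 ± 0.10 (mean ± SD, n = 2 each), a fall of 0.54 on the log2 scale (SE 0.074, limma adjusted p = 0.0167), or 1.45-fold lower. With 1 array left out the difference was between −0.61 and −0.47, although the call was lost in each of these limma fits.

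Rab7, the general regulator of transport to lysosomes and a relative of Rab7b by name and sequence, did not pass. It read 9.84 and 9.84 in WT, with 9.82 and 9.98 in Flt3 KO, with a difference of 0.05 and a 95% interval of −0.10 to 0.21. The genotypes overlapped, and the sign turned to −0.03 without Flt3 KO replicate 2. Within each array the log2 ratio of Rab7b to Rab7 stood at −0.58 and −0.60 in the Flt3 KO arrays relative to the WT mean, against −0.06 and 0.06 in the WT arrays. This change of −0.59 had an exact permutation p of 0.333, the smallest that 2 against 2 samples can give. Rab24, a Rab linked to autophagy, read 9.73 in both WT arrays and 9.62 and 9.53 in Flt3 KO (difference −0.15, limma adjusted p = 0.228). Rab29, the neighbour of LRRK2 in Golgi and lysosome stress, Rab9, which returns receptors from late endosomes to the Golgi, and Rab9b differed by −0.12, −0.09 and 0.01. In all, 1 of 6 members of the group fell, or 16.7% against 2.39% of all genes, and 0 rose, with a median of −0.11.

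Rab7b and the pDC markers were both lower in Flt3 KO. Their summed intensity was 46902 and 46043 in WT, with 39686 and 40013 in Flt3 KO, and their median stood at −0.26 and −0.29 in the Flt3 KO arrays relative to the WT mean, where Rab7b stood at −0.61 and −0.47. The 8 markers that fell stood at −0.80 to −0.21 in replicate 1. In these bulk samples, fewer cells of a type and less RNA per cell cannot be told apart. Of 18 markers of conventional dendritic cells 1 rose, Dpp4, 0 fell, and Xcr1, Tlr3, Itgae, Esam, Clec4a4 and Snx22 were below the median level of all genes on all 4 arrays. Their summed intensity was 11622 to 11805 in WT and 12889 to 13086 in Flt3 KO. Whether the makeup of the sorted cells has a part in the fall of Rab7b was not tested.

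Among Rabs of secretory granules and lysosome-related organelles, Rab27a rose. Rab27a docks secretory lysosomes and exosome-bearing endosomes at the plasma membrane, and its loss causes Griscelli syndrome in people and the ashen coat in mice. It read 7.96 and 7.99 in WT, with 8.38 and 8.50 in Flt3 KO, with both Flt3 KO arrays above both WT arrays. The mean went from 7.97 ± 0.02 to 8.44 ± 0.08 (SD, n = 2 each), a rise of 0.47 (SE 0.069, limma adjusted p = 0.0201), or 1.39-fold. With 1 array left out the difference was 0.41 to 0.53, with no call in these fits. Its paralog Rab27b, which shares many of its effectors, was dim at 4.63 ± 0.06 in WT and 4.55 ± 0.07 in Flt3 KO (SD, n = 2 each), with overlapping values, and its difference was −0.08 (95% interval −0.31 to 0.14). The log2 ratio of Rab27a to Rab27b rose by 0.55 without overlap between genotypes (exact permutation p = 0.333, the smallest possible).

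Rab32, which with Rab38 directs cargo to melanosomes and other lysosome-related organelles, had values of 6.15 and 6.12 in WT, with 6.45 and 6.59 in Flt3 KO. The genotypes did not overlap, but the difference of 0.39 (SE 0.089) had a limma adjusted p of 0.0842 and did not pass. It passed, at an adjusted p of 0.0449, when only genes at or above the median level were tested. Rab38 was dim, at 5.17 in WT replicate 1 and an identical 5.1547 in WT replicate 2 and both Flt3 KO arrays. With values tied across the genotypes, its difference of −0.01 (95% interval −0.22 to 0.20) is a poor measure of change. Rab44, an unusually large Rab with EF-hand and coiled-coil regions that is known from granulocytes and mast cells, read 5.91 and 6.05 in WT, with 6.25 and 6.29 in Flt3 KO (difference 0.29, limma adjusted p = 0.163). Of 13 neutrophil markers measured beside it 0 passed in limma. Csf3r and Cxcr2, both higher, and S100a8, lower, had an unadjusted limma p under 0.05, or 23.1% against 17.1% of all genes. On all 4 arrays 9 of the 13 were below the median level, Elane, Mpo, Ly6g, Cxcr2 and S100a8 among them. S100a9 was above it, with means of 6.90 in WT and 6.75 in Flt3 KO.

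The other members of this group are the Rab3 proteins of regulated exocytosis, Rab26 of synaptic vesicles and Rab37 of mast cell granules. Rab3b had a difference of 0.30 (limma adjusted p = 0.267) at levels of 3.47 to 3.93, far below the median level of all genes. Rab3d, known from the granules of secretory cells, read 8.19 and 8.14 in WT, with 7.90 and 8.25 in Flt3 KO, so its Flt3 KO replicates enclosed the WT values. Rab3a, Rab3c and Rab26 differed by 0.02 to 0.06, and Rab37 by −0.17 with overlapping values. The group had 1 rise and 0 falls among 11 members, or 9.09% against 2.39% of all genes. At an unadjusted limma p under 0.05 there were 4, all of them higher, or 36.4% against 17.1%, and the median difference was 0.03.

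Rab31 showed the largest difference of the family and the only call among 11 early endosomal Rabs, or 9.09% against 2.39% of all genes. Rab31 and Rab5c had an unadjusted limma p under 0.05, or 18.2% of the group, near the 17.1% of all genes. Rab31, also called Rab22b, carries cargo between the trans-Golgi network and endosomes. Its log2 intensity was 6.92 and 7.02 in WT, with 7.51 and 7.77 in Flt3 KO. Both Flt3 KO arrays were above both WT arrays, and replicate 2 was the highest. The rise was 0.67 (SE 0.10, limma adjusted p = 0.0214), or 1.59-fold, from 6.97 ± 0.07 to 7.64 ± 0.18 (SD, n = 2 each). The difference was 0.54 without Flt3 KO replicate 2 and 0.80 without replicate 1, and the call was lost in both limma fits.

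Rab22a, the closest relative of Rab31, read 7.06 and 7.15 in WT, with 7.04 and 6.94 in Flt3 KO. Its difference was −0.12 with a 95% interval of −0.31 to 0.07. The log2 ratio of Rab31 to Rab22a rose by 0.79, with 0.61 and 0.97 in the Flt3 KO arrays (exact permutation p = 0.333, the smallest possible). Rab5a, Rab5b and Rab5c, which drive fusion of early endosomes, differed by −0.03, 0.06 and −0.16. Rab5c came nearest to the threshold, at 9.32 and 9.21 in WT, with 9.08 and 9.12 in Flt3 KO (limma adjusted p = 0.245). For Rab5a the 95% interval was −0.18 to 0.11 and the genotypes overlapped. Rab21, which follows integrins into endosomes, differed by −0.16, Rab4b and Rab14 of early recycling by −0.11 and −0.07, and Rab4a, Rab17 and Rab20 by 0.03 to 0.09. The median of the group was −0.03.

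Rab31, Rab27a and Rab32 were each higher in Flt3 KO replicate 2 than in replicate 1. So were Rab7b, which fell, and 47.5% of the 59 Rab genes, against 51% of all genes. The median of the monocyte and macrophage markers was also higher in Flt3 KO replicate 2. In WT the median of these markers was lower in replicate 2, where Rab32 was also lower and Rab31, Rab27a and Rab7b were higher. Of 22 such markers measured, 6 rose and 0 fell, namely Ccr2, Fn1, Cx3cr1, Cd14, Lyz2 and Lyz1. The near-identical lysozyme genes Lyz2 and Lyz1 can share probe signal. Relative to the WT mean the list's median stood at 0.11 and 0.55 in the Flt3 KO arrays, and at 0.08 and −0.08 in the WT arrays. Its summed intensity was 6480.0 and 5787 in WT, with 7049 and 9237 in Flt3 KO, and 1 of the 22, Fcgr1, was below the median level of all genes on all 4 arrays. The 6 that rose stood 0.48 to 0.94 above the WT mean in replicate 1 and 0.49 to 1.35 above it in replicate 2. Rab31 and Rab27a stood at 0.54 and 0.41 in replicate 1. Of the 22 markers 20 were higher in Flt3 KO replicate 2 than in replicate 1. Among the 6 called, Cx3cr1 went from 0.82 to 1.25 and Cd14 from 0.81 to 1.35. Ccr2 and Lyz1 differed little, and Fn1 and Lyz2 were lower in replicate 2. Spic, Adgre1 and Timd4 did not pass, and went from −0.22, −0.10 and −0.03 to 0.51, 0.56 and 0.58. The part of such cells in the Rab differences was not tested.

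**Figure D2:**
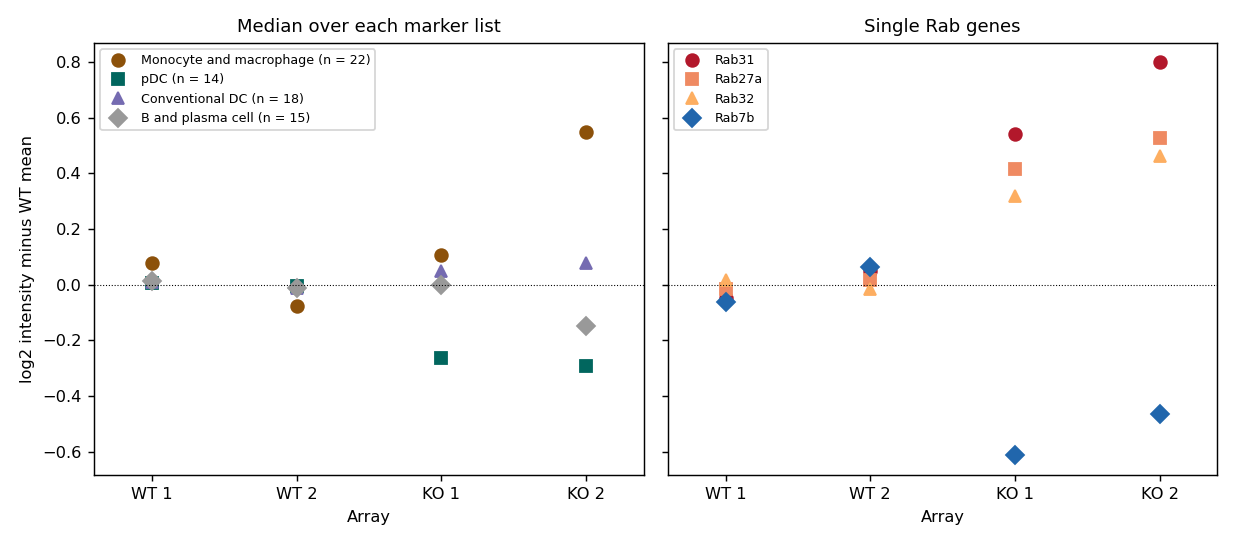
Log2 intensity minus the WT mean (y axis) in each of the 4 arrays (x axis), as the median over each marker list on the left and for 4 single Rab genes on the right. The median of the monocyte and macrophage markers stands at 0.11 (KO 1) and 0.55 (KO 2), while Rab31 stands at 0.54 and 0.80 and Rab7b at −0.61 and −0.47.

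The sequence just before the start sites of the higher members is shown because these genes had the largest positive differences, and that of Rab22a because it is the close relative of Rab31 that did not pass. RefSeq start sites of the GRCm38.p6 assembly were found for 48 of the 59 members, 60 sites in all. Each line gives the 250 bases before a start, 5′ to 3′ on the strand of the gene. Capitals mark each E-box (CANNTG) and each ETS core of the PU.1 and Spi-B type (GAGGAA), on either strand.
Rab27a, first start, chr9:73044560-73044809, plus strand: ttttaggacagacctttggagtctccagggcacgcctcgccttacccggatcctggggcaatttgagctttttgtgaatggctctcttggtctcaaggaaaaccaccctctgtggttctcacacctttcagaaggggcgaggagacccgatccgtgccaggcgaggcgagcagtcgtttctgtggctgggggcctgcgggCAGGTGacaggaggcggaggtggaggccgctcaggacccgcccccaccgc
Rab27a, second start, chr9:73063898-73064147, plus strand: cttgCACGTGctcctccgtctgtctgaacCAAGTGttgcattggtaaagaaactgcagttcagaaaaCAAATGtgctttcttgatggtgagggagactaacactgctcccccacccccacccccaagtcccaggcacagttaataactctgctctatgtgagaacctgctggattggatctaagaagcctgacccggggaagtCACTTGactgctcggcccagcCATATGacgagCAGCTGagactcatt
Rab31, chr17:65772753-65773002, minus strand: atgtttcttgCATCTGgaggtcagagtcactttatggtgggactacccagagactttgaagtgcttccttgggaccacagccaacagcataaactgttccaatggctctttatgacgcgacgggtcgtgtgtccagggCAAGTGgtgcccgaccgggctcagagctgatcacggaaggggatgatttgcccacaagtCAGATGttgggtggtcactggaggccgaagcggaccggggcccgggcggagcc
Rab22a, chr2:173659595-173659844, plus strand: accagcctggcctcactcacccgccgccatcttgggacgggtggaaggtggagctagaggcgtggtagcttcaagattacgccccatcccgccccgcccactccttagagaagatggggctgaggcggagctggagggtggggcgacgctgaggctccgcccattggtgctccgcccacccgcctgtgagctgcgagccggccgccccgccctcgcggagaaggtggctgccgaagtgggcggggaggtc
Rab32, chr10:10558208-10558457, minus strand: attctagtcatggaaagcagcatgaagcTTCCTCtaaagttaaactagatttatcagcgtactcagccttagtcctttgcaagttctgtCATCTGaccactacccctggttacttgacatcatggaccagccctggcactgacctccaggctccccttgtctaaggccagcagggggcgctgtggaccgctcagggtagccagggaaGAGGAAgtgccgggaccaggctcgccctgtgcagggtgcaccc

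The second Rab27a start had 6 E-boxes in its window, including CACGTG, the form bound by MITF, TFEB and MYC proteins, and the first had 1. Rab31 had 3 E-boxes, Rab32 had 1 E-box and 2 GAGGAA cores, and Rab22a had neither motif but 7 GC boxes (GGGCGG). For comparison, CANNTG was present in 66.2% of 32817 windows of all genes and 63.3% of the 60 Rab windows, and CACGTG, which CANNTG includes, in 6.02% and 8.33%. GAGGAA was present in 23.3% of all windows and 13.3% of Rab windows. The GC box, a site of Sp-family factors, was in 32.7% of all windows and 66.7% of Rab windows, whose median GC content was 60.2% against 52.4%. AP-1 sites (TGANTCA) were in 3.33% of Rab windows and 6.75% of all, and STAT sites (TTCNNNGAA) in 8.33% and 7.01%. These are matches of letters on both strands and say nothing of binding in these cells.

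No Rab of the endoplasmic reticulum (ER) and Golgi passed the limma threshold, and 4 of 17, all lower in Flt3 KO, had an unadjusted p under 0.05. That is 23.5%, near the 17.1% of all genes, of which 2020 were lower and 1385 higher. Rab30, a Golgi GTPase, read 6.01 and 6.08 in WT, with 5.66 and 5.46 in Flt3 KO, a difference of −0.48 (SE 0.10) with an adjusted p of 0.0678. Rab19, also of the Golgi, read 6.06 and 6.10 in WT, with 5.77 and 5.55 in Flt3 KO, a difference of −0.42 (SE 0.10) with an adjusted p of 0.0999. Both genes were near the median level of all genes, and both were lower in each Flt3 KO array than in each WT array, with replicate 2 the lowest. Rab30 passed after centring of the arrays on their medians (adjusted p = 0.0304), under quantile normalization (0.0381) and with robust variance (0.049989), and Rab19 after centring (0.0495). Centring moved the share of higher genes among all calls from 45.2% to 32.4%.

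Rab1b, which with Rab1a governs transport from the ER to the Golgi, had tight replicates at 9.32 and 9.33 in WT, with 9.15 and 9.13 in Flt3 KO. The difference was small, at −0.18 (limma adjusted p = 0.151). Rab1a went the other way by 0.08 (95% interval −0.05 to 0.20), and the log2 ratio of Rab1b to Rab1a fell by 0.26 without overlap between genotypes (exact permutation p = 0.333, the smallest possible). Rab33b, which binds the autophagy protein ATG16L1, read 8.34 and 8.21 in WT, with 8.09 and 8.04 in Flt3 KO (difference −0.21, limma adjusted p = 0.201). Its dim paralog Rab33a had 2.86 and 2.96 in WT, with 3.24 and 3.04 in Flt3 KO (difference 0.22). Rab36 and Rab2b differed by −0.20 and −0.16, and Rab34 and Rab43 by 0.20 and 0.18. The remaining 7 members, Rab2a, Rab6a, Rab6b, Rab18, Rab39, Rab39b and Rab42, lay between −0.04 and 0.04.

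Rabs of recycling and exocytic transport differed little. All 10 lay between −0.10 and 0.10, 0 passed in limma and 0 had an unadjusted p under 0.05. Rab11a, the regulator of recycling endosomes, read 9.47 and 9.49 in WT, with 9.39 and 9.37 in Flt3 KO, so the genotypes did not overlap, but the difference was −0.10 (95% interval −0.22 to 0.03, limma adjusted p = 0.401). Rab11b differed by 0.04. Rab8a and Rab10, which act in transport to the plasma membrane, differed by −0.06 and −0.03, with 95% intervals of −0.20 to 0.07 and −0.15 to 0.09. Rab25 had the largest difference of the group, 0.10, below the median level of all genes, at 5.47 and 5.49 in WT, with 5.57 and 5.59 in Flt3 KO. Of the 4 members outside these groups, Rab23 of ciliary signalling, Rab28, Rab40b and Rab40c, 0 passed and 0 had an unadjusted p under 0.05, and their differences were between −0.09 and 0.10. Rab40c had the largest, at 7.18 and 7.21 in WT, with 7.20 and 7.39 in Flt3 KO, so the genotypes overlapped.

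**Figure D3:**
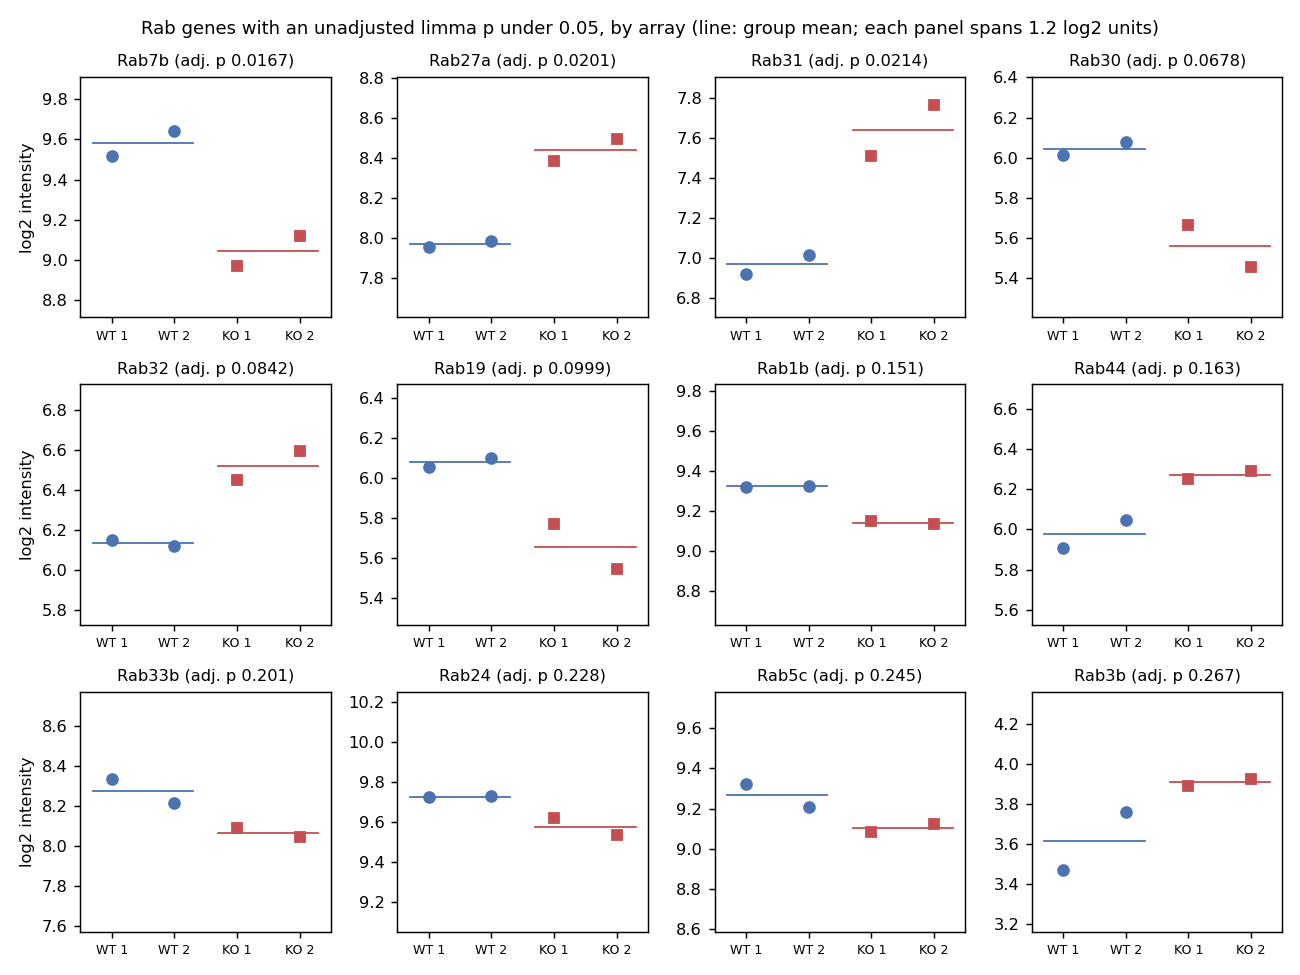
Log2 intensity (y axis) in each array (x axis; WT circles, Flt3 KO squares) for the 12 Rab genes with an unadjusted limma p under 0.05, with a line at each group's mean and the same height of scale in every panel. In each panel the 2 WT and 2 Flt3 KO values do not overlap, and Rab7b, Rab27a and Rab31 are the panels with an adjusted p under 0.05.

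Only 3 members had more than 1 probe set, none of them called. The probe sets of Rab5b differed by 0.03 and 0.06. Those of Rab2a had opposite signs, 0.07 and −0.03, and so did those of Rab11b, −0.0020 and 0.04, each within its SE. The brighter probe set of Rab2a read 9.90 and 10.24 in WT, with 10.03 and 10.04 in Flt3 KO, and that of Rab11b read 9.75 and 9.58 in WT, with 9.70 and 9.71 in Flt3 KO, so that in both genes the WT values enclosed those of Flt3 KO. The remaining 56 members, the 3 called genes among them, were read by a single probe set each, so no second reading of their differences exists on this array.

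Genes that act on Rabs showed larger single rises than the Rabs themselves, up to 1.07 against 0.67. Their lowest difference, −0.42, was smaller in size than the −0.54 of Rab7b. Across 198 measured exchange factors, GTPase-activating proteins, effectors, tethers and genes of the membrane cycle, 6 rose and 2 fell, and 190 did not pass. That is 4.04%, against 2.39% of all genes. The balance of rises and falls differed between settings, with 5 higher and 6 lower after centring of the arrays. It was 6 and 6 with robust variance, and 7 and 8 among genes at or above the median level. The median difference was −0.05. With 1 array left out 0 to 3 of the 198 passed in limma, and 24 to 38 had an unadjusted p under 0.05.

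The largest rises were in exchange factors, where 4 of 41 rose and 1 fell, or 12.2% against 2.39% of all genes. Most of the list was lower, with 14 positive differences of 41 and a median of −0.05. At an unadjusted limma p under 0.05 there were 5 higher and 6 lower, or 26.8% against 17.1% of all genes. Rin3, an exchange factor for Rab5 and Rab31, read 6.89 and 6.90 in WT, with 7.83 and 7.98 in Flt3 KO, a rise of 1.01 (SE 0.080, limma adjusted p = 0.00371). Its relative Rin2, a Rab5 exchange factor, read 6.82 and 6.77 in WT, with 7.55 and 7.87 in Flt3 KO, a rise of 0.91 (SE 0.11, adjusted p = 0.0110). Rab3il1, an exchange factor for Rab3 and Rab8 proteins, read 7.34 and 7.28 in WT, with 8.26 and 8.51 in Flt3 KO, a rise of 1.07 (SE 0.093, adjusted p = 0.00389). All Flt3 KO values of these 3 genes were above all WT values. None of the 4 Rab3 and 2 Rab8 genes passed, with differences from −0.09 for Rab3d to 0.30 for Rab3b, whose unadjusted limma p was 0.0403.

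Dennd5b, a DENN-domain protein, rose by 0.46 (adjusted p = 0.0487) from a level below the median of all genes, and its second, dimmer probe set differed by 0.40. Rgp1, which with Ric1 activates Rab6, fell from a mean of 9.87 to 9.52, by 0.34 (SE 0.052, limma adjusted p = 0.0230), while Rab6a differed by 0.03. Other activators of Rab5 stayed within smaller differences, with Rin1 at 0.16, Rabgef1 at −0.01 and Gapvd1 at −0.08. Of 40 GTPase-activating proteins Tbc1d9 rose, from 7.30 and 7.23 to 7.65 and 7.88 (difference 0.50, limma adjusted p = 0.0435), and 0 fell. This 1 call is 2.5% of the list, near the 2.39% of all genes. With 2 higher and 7 lower, 22.5% of the list had an unadjusted limma p under 0.05, against 17.1%. Tbc1d19 differed by −0.40 with an adjusted p of 0.0562.

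Of 63 effectors 1 rose and 0 fell, or 1.59% against 2.39% of all genes. At an unadjusted limma p under 0.05 there were 2 higher and 9 lower, or 17.5%, near the 17.1% of all genes. Lrrk2, a kinase that phosphorylates several Rabs, read 6.65 and 6.66 in WT, with 7.14 and 7.56 in Flt3 KO, a rise of 0.69 (SE 0.13, limma adjusted p = 0.0492). Its second probe set was dim and differed by 0.13, so the probe sets of Lrrk2 did not give the same size of change. Rilpl1, a relative of the Rab7 effector RILP, had a difference of −0.34 and an adjusted p of 0.0514, just outside the threshold. Erc1 differed by −0.37 in its brightest probe set, the one kept (limma adjusted p = 0.0971). Its dimmer probe sets differed by −0.51 and −0.52. The last of these had an adjusted p of 0.0496 in the limma fit of every probe set of 1 symbol. Rab11fip5 of the Rab11 effectors differed by 0.61 (adjusted p = 0.0976), with 7.27 and 7.70 in Flt3 KO against a mean of 6.88 in WT. Among 41 subunits of tethering, TRAPP, BLOC and HPS complexes 0 rose and 1 fell, Bloc1s1 of BLOC-1, by 0.31 (adjusted p = 0.0488, and −0.30 in its second probe set). This 1 call is 2.44% of the list, near the 2.39% of all genes. The list had 10 positive differences of 41 and a median of −0.09, against 9897 of 19938 and −0.0010 over all genes. Trappc2 and Trappc2l followed with −0.42 and −0.34 (adjusted p = 0.0523 and 0.0646).

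The 13 genes that load, prenylate and retrieve Rabs had 0 calls in limma and 1 at an unadjusted p under 0.05, Yipf1 at −0.18, with Gdi2 at 0.15. Of 17 other Ras-like GTPases 0 passed in limma, and 4 had an unadjusted p under 0.05, 1 of them higher and 3 lower. That is 23.5%, against 17.1% of all genes. All 6 pathway genes that rose, and the 2 that fell, were higher in Flt3 KO replicate 2 than in replicate 1. So were 65.2% of the 198 pathway genes, against 51% of all genes. The median of monocyte and macrophage markers was also higher in Flt3 KO replicate 2, though Fn1 and Lyz2, which rose, were not. Without Flt3 KO replicate 2 the rises of Rin3, Rab3il1 and Rin2 were 0.93, 0.95 and 0.75. Tbc1d9 and Lrrk2 then stood at 0.39 and 0.48.

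**Figure D4:**
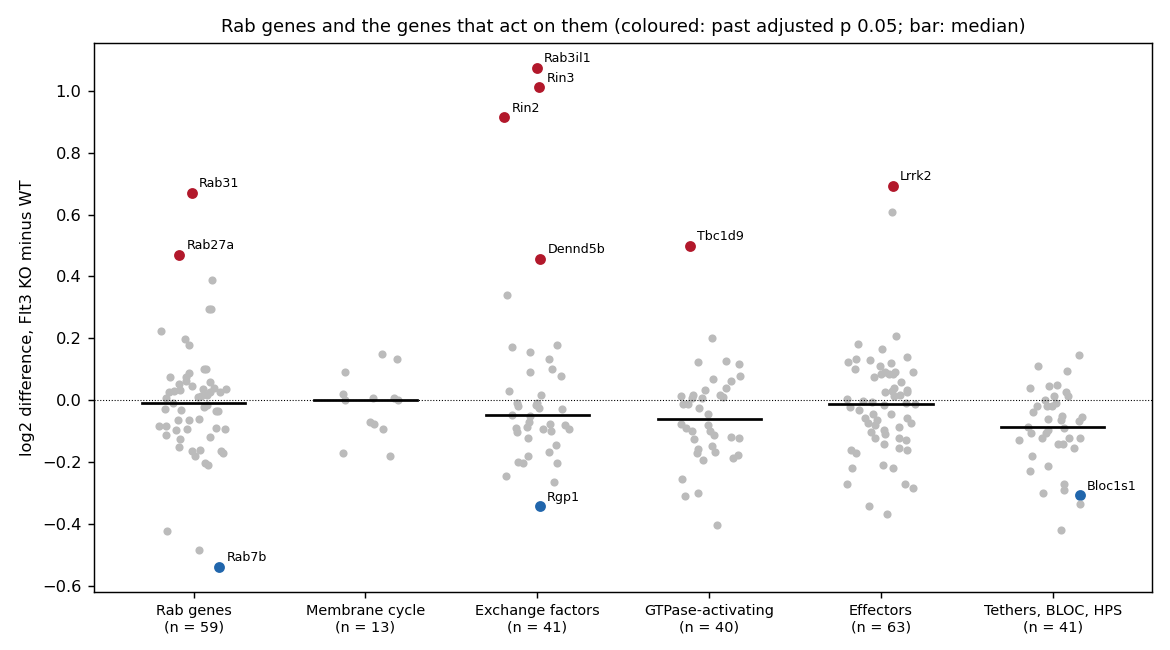
Log2 difference (Flt3 KO minus WT, y axis) of each Rab gene and of each gene in 5 lists of Rab partners (x axis, with the number measured), with genes past an adjusted p of 0.05 in red (higher) or blue (lower) and a bar at each median. Rab3il1, Rin3 and Rin2 lie between 0.91 and 1.07, above Rab31 at 0.67.

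Known partners of Rab27, Rab5 and Rab31, Rab7, Rab32 and Rab38, and Rab11 were set beside them, in groups chosen from general knowledge after the Rab values had been seen. Partners of Rab7b itself were not listed. Of 15 genes that act with Rab27a and Rab27b 0 passed in limma, and 3 had an unadjusted p under 0.05, or 20.0%, near the 17.1% of all genes. These were Unc13d, the Munc13-4 priming factor of secretory lysosomes, which read 7.32 in both WT arrays and 7.02 and 7.06 in Flt3 KO (difference −0.28, limma adjusted p = 0.107), the myosin gene Myo5a (−0.15) and Sytl3 (−0.22). The exchange factor gene Madd differed by 0.13. Of 13 genes that act with Rab5 and Rab31, Rin2 and Rin3 rose and 11 did not pass, and the effectors Eea1 and Rabep1 had −0.14 and −0.16. Only Rin2 and Rin3 had an unadjusted limma p under 0.05, or 15.4% against 17.1% of all genes. Of 10 partners of Rab7, among them Mon1a, Ccz1, Rilp and Plekhm1, 0 passed in limma, and 1, Rubcn at −0.21, had an unadjusted p under 0.05. Of 5 partners of Rab32 and Rab38 Lrrk2 rose, while Hps1 and Ankrd27 went the opposite way, by −0.18 and −0.20, and did not pass. All 3 had an unadjusted limma p under 0.05, or 60.0% of this small list against 17.1% of all genes. Of 6 Rab11 effectors 0 passed in limma, and Rab11fip5 alone had an unadjusted p under 0.05.

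The remaining marker lists are given by their counts. Of 15 B cell and plasma cell markers 1 rose, Jchain, from a mean of 8.69 to 9.90, and 2 fell, Mzb1 and Xbp1, with a median of −0.09. Of 14 T cell and NK cell markers Klrk1 rose and 0 fell. Of 8 platelet and megakaryocyte markers, set beside Rab27b, which platelets are known to use for granule release, and of 4 erythroid markers, 0 passed in limma, and 1 and 0 had an unadjusted p under 0.05.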

How the data were processed

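The 4 arrays' intensity values were used as the authors deposited them, on a linear scale. The sources used here do not give their background correction, summarisation or scaling. Gene names came from the platform annotation, in which 21789 probe sets had 1 symbol, 1621 several and 6767 none. For each gene the probe set with the highest mean was kept, and log2 values were fitted for all 19938 genes with limma 3.58.1 in R 4.3.3 (lmFit, eBayes with an intensity trend), without an added constant, a filter or a covariate, and tested on simulated data. An exact permutation test of 2 against 2 samples cannot go below 0.333. The number of arrays limits the precision.

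The text gives per-array values for Rab genes past the threshold, those with an unadjusted p under 0.05, the largest difference of each role group, members whose probe sets disagree and 7 Rabs shown whatever their values (Rab5a, Rab7, Rab7b, Rab11a, Rab27a, Rab32 and Rab38). Other members are given as differences. Of the lists of partners and markers it names those past the threshold or lowest in p. Genes outside this rule were chosen after their values were seen. The family, the role groups and all lists were chosen with earlier results of these data known. Alternatives were other scalings, an added 16, a filter on dim genes, other handling of probe sets and variance, a replicate block, and 1 array left out. Same-numbered replicates did not deviate together (correlation −0.02 across genes), so the numbers were not taken as pairs.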

Additional observations from a re-analysis of the deposited data

How the results depend on the processing

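Rab7b, Rab27a and Rab31 were the 3 called with 16 added to each intensity, with probe sets averaged, with every probe set of 1 symbol tested, and with the replicate number as a block. Quantile normalization and robust variance added Rab30, and the test of genes at or above the median level added Rab32, for 4 each. Centring gave 5, with Rab30 and Rab19 added. Without the intensity trend 0 passed in limma (11 at an unadjusted p under 0.05), and without any single array the count was 0 in each fit, which had 1 residual degree of freedom. With all 30177 probe sets tested, an alternative chosen after seeing the data, 2 passed and Rab31 did not (adjusted p = 0.0520). The family's median of −0.0093 was −0.0474 after centring, −0.0206 under quantile normalization, −0.0064 with 16 added, −0.0473 over the 36 genes at or above the median level, and 0.0060 with probe sets averaged. It ranged from −0.0287 to −0.0105 with 1 array left out.

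Of the 198 partner genes 8 passed. There were 11 after centring, 12 with robust variance, 15 among genes at or above the median level, 5 with probe sets averaged, 3 without the trend, 3 with all probe sets tested, 6 with the replicate block (375 of all genes, against 476), and 0 to 3 with 1 array left out. Flt3 ranged from −2.28 to −2.13 with 1 array left out, with adjusted p of 0.0633 and 0.0736 without WT replicate 1 or 2. The 2 Rab genes with probe sets of opposite sign became 3 after centring, 0 under quantile normalization and 0 to 2 with 1 array left out. Among 21 named Rab genes, 17 turned sign in no alternative run, with Rab38 at no difference without WT replicate 1. The other 4 were uncalled throughout: Rab5a was 0.0139 and Rab2a 0.0074 under quantile normalization, and Rab2a was 0.0214 with probe sets averaged. With 1 array left out, Rab5a ranged from −0.0734 to 0.0043, Rab2a from −0.199 to 0.137, Rab11b from −0.0464 to 0.124 and Rab7 from −0.0287 to 0.134. The cause was not tested.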
